A study of Mus musculus with 4 samples.

Results

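Nes, Map2, Sox21, Sox1, Pax6, Tubb3, Ncam1 and Cck are 8 of the 47633 genes in the deposited expression table, taken by their mouse symbols. They comprise 7 genes that mark neural progenitors or neurons and Cck, which encodes the peptide cholecystokinin, and they were chosen by their FPKM values in these same 4 libraries, already known when the group was drawn up. Their levels and differences are therefore given as a description, with no test. Of the 8, 7 reached 1 FPKM (fragments mapped to a gene, scaled to transcript length and library depth) in at least 1 library, as did 15676 genes of the whole table. Sox1 stayed below that level in every library.

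Total RNA was sequenced from 129S2/SvPas mouse ES (embryonic stem) cells, cultured with leukaemia inhibitory factor (LIF) on C57/BL6 embryonic fibroblasts treated with mitomycin C, and from cells derived from them. For 1 library the label is embryoid body, which means a ball of cells that forms as ES cells differentiate, with 5 days of LIF withdrawal, 1 came from cells kept without LIF for 2 days, and 2 came from ES cells. Neither derived library had a replicate, and the labels leave unstated if the ES pair stems from separate cultures and whether fibroblasts were still present after LIF withdrawal.

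Neural fate in the embryo begins when ectoderm takes on a SOX-driven progenitor state. SOX1 is among the earliest factors confined to neuroectoderm, PAX6 patterns the forebrain and eye, and SOX21 opposes the SOX1 to SOX3 group to promote neuronal differentiation. Nestin, the Nes product, is the intermediate filament of neural progenitors and is also made by other proliferating cells such as myogenic and vascular precursors. TUBB3 is a neuron-enriched beta tubulin, MAP2 binds microtubules in dendrites, and NCAM1 is a surface adhesion molecule of neurons and many embryonic tissues. Cholecystokinin is made by intestinal endocrine cells and by many neurons of the brain, and its precursor is cut by prohormone convertases before secretion.

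Of these 8 genes, 7 have a promoter in the RefSeq table on GRCm38.p6, and Ncam1 is the exception. The bases before the start are printed for Cck and Sox21, the members at least 2-fold above both ES libraries in the embryoid body library, and for Nes and Map2, which had the most negative log2 difference from ES cells in the embryoid body library (Nes) and after 2 days without LIF (Map2). Sequences run 5′ to 3′ on the gene's strand, and capitals mark the element core TGACG, the GC box GGGCGG or the SOX core ACAAT on either strand. Bases inside GENCODE exons of the gene were removed, which was 15 for Nes and 56 for Map2.
Cck, chr9:121495695-121495944, minus strand: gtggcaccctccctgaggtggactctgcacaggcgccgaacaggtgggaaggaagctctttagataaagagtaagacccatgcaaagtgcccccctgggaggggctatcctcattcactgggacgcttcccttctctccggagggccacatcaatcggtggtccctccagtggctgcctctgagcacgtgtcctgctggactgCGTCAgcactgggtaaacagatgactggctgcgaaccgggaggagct
Sox21, chr14:118237031-118237280, minus strand: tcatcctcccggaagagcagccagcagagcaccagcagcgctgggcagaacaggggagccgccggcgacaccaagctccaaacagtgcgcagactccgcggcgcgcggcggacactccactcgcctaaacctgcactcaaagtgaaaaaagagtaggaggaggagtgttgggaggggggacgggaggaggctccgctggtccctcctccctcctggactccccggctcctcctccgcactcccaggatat
Nes, chr3:87970843-87971077, plus strand: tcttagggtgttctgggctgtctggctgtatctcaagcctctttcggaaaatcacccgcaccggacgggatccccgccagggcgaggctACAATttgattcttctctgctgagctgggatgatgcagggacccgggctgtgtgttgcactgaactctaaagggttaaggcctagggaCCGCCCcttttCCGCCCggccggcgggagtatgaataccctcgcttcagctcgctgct
Map2, chr1:66175079-66175272, plus strand: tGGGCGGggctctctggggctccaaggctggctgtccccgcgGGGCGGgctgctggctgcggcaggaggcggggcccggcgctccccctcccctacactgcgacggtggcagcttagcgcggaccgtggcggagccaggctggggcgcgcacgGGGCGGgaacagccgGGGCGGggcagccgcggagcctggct

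A set of 6 motifs was searched on both strands, namely the cyclic AMP response element TGACGTCA and its core TGACG, which lies within it, the AP-1 site TGANTCA, the E-box CANNTG, the GC box GGGCGG and the SOX core ACAAT. The Cck window holds 1 TGACG, starting 47 bases before the RefSeq start, and TGACG occurs in 17.8% of all windows of 250 bases. It also holds 3 E-boxes, which 66.2% of such windows contain, and no match to the other 4 motifs. The Sox21 window has none of the 6. The Nes window of 235 bases has 2 GC boxes, a motif present in 30.6% of windows of that length, and 1 ACAAT, present in 26.8%. In the Map2 window of 194 bases GGGCGG occurs 4 times, against a share of 23.6% of windows with at least 1. A match describes letters in the window and nothing about binding.

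Base composition set these promoters apart from one another. It was counted over the full 250 bases before the RefSeq start, with no exon bases removed. G and C made up 81.2% for Map2, 71.2% for Sox1, 68% for Tubb3, 65.2% for Sox21, 60% for Cck and 58.8% for Nes. The median over 32851 promoters was 52.4%. In GENCODE Sox1 starts at 12395295, so most of its window (12395269 to 12395518) lies inside the gene. The Tubb3, Nes and Map2 windows also run past the GENCODE start. Pax6 has a pair of listed starts, at 60.8% and 47.6%. Map2 held 34 CG dinucleotides and Sox1 29, against a median of 6 over all promoters, while Cck, with 9, had the fewest of the members.

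**Figure D1:**
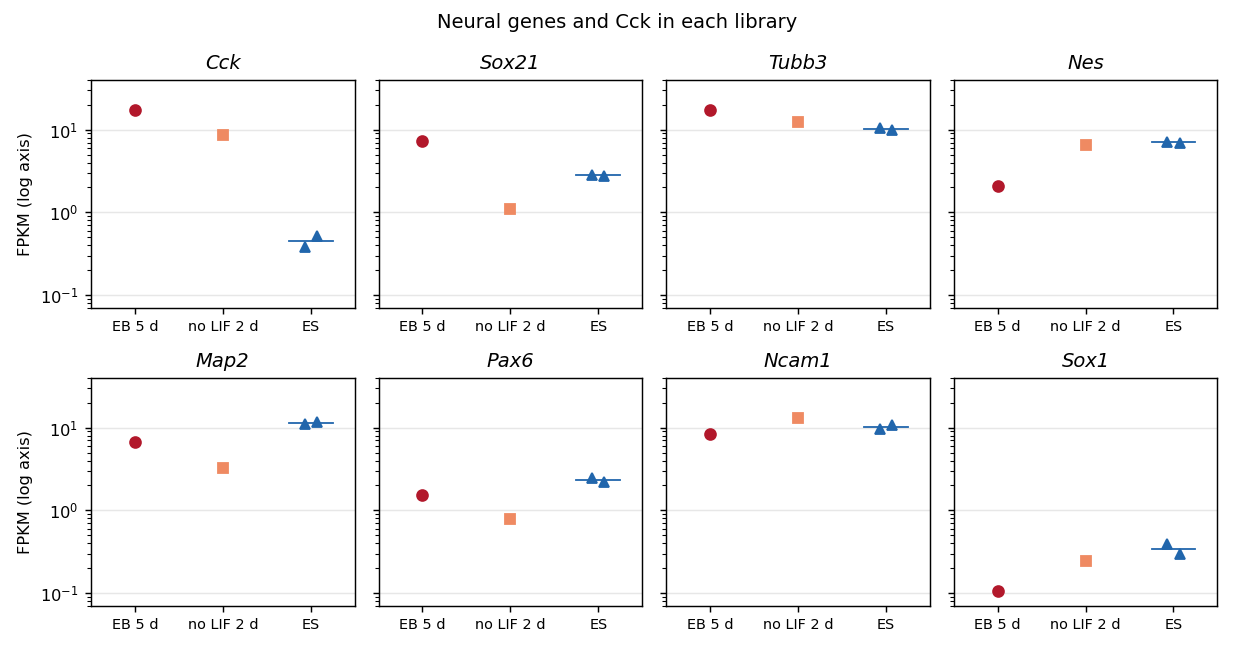
FPKM of each gene on a log axis in the embryoid body library (circle), the library after 2 days without LIF (square) and the 2 ES libraries (triangles, with a line at their mean). Cck lies above both ES libraries in both derived libraries, and Sox21 lies above them in the embryoid body library and below them after 2 days without LIF.

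Cck was the member that differed most from ES cells. It was at 17.2 FPKM in the embryoid body library and 8.56 FPKM after 2 days without LIF, against 0.378 and 0.512 FPKM in the ES libraries. Both derived libraries lay far above both ES libraries, and the embryoid body value was the highest of any member in that library. Relative to the ES mean of 0.445 ± 0.0948 FPKM (SD, n = 2), Cck was 38.7-fold higher in the embryoid body library and 19.2-fold higher after 2 days without LIF. On the log2(FPKM + 1) scale, which understates changes of low genes, these differences were 3.66 and 2.73, ranking 53rd and 245th from the top of 15676 genes.

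The low ES level of Cck still rested on more than a floor of 3 fragments. At the estimated depth it corresponded to about 16 and 18 fragments in the ES libraries, against about 595 in the embryoid body library and 202 after 2 days without LIF. The 95% Poisson intervals were 15.9 to 18.7 FPKM in the embryoid body library, 7.43 to 9.84 FPKM after 2 days without LIF, 0.223 to 0.633 FPKM in ES 1 and 0.309 to 0.824 FPKM in ES 2. These intervals, here and below, cover counting error only and assume that all annotated exons count towards length, and those of the ES libraries overlap while those of the derived libraries overlap no other. Cck (ENSMUSG00000032532.6, chromosome 9, 121489824 to 121495694, minus strand, mm10) overlaps no gene on the opposite strand in GENCODE M21.

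The CCK receptors, the main endocrine convertases and gastrin stayed under 1 FPKM in every library. Cckar and Cckbr, the 2 receptors of the peptide, were at 0.026 and 0.0155 FPKM in the embryoid body library, and Cckar was listed at 0 elsewhere while Cckbr did not exceed 0.144 FPKM. Pcsk1 and Pcsk2, the prohormone convertases of endocrine cells, were at 0.888 and 0.633 FPKM in the embryoid body library, against 0.771 and 0.572 FPKM in ES 1 and 0.773 and 0.552 FPKM in ES 2. Gast, which encodes the related peptide gastrin, was listed at 0 in 3 libraries and reached 0.137 FPKM in ES 2. These 5 genes were singled out for their role beside Cck, after their values were seen. Of 20 processing, granule and receptor genes, 11 reached 1 FPKM in a library. Of the 11, 9 were above the ES mean after 2 days without LIF and 7 in the embryoid body library, the others below. The median log2 difference over all genes was 0.04 after 2 days without LIF and -0.01 in the embryoid body library. Differences of either sign were thus common, and nothing is read from these counts. Furin, Cpe and Pcsk5, also named after their values were seen, were at 6.74, 10.4 and 0.45 FPKM in the embryoid body library. They were at 12.9, 16.9 and 1.65 FPKM after 2 days without LIF, against 6.22, 13.1 and 0.0693 FPKM in ES 1 and 8.33, 12.2 and 0.158 FPKM in ES 2.

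Sox21, a SOXB2 repressor, went in opposite directions from ES cells in the derived libraries. It was at 7.22 FPKM in the embryoid body library and 1.09 FPKM after 2 days without LIF, against 2.87 and 2.77 FPKM in the ES libraries. The embryoid body library lay above both ES libraries and the other lay below both. Sox21 was thus 2.56-fold the ES mean of 2.82 ± 0.0746 FPKM (SD, n = 2) in the embryoid body library and 0.386-fold after 2 days without LIF, and 6.63-fold higher in the embryoid body library than after 2 days without LIF. The Poisson intervals of the embryoid body library (6.71 to 7.77 FPKM), LIF withdrawal (0.86 to 1.37 FPKM) and ES cells (2.57 to 3.19 and 2.45 to 3.11 FPKM) did not overlap except within the ES pair.

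Sox21 (ENSMUSG00000061517.8, chromosome 14, 118233232 to 118237030, minus strand) is the member most exposed to an opposite-strand neighbour. Exons of the long non-coding gene Gm4675 cover 713 nt, or 18.8%, of its exon length. Gm4675 itself was at 0.368 FPKM in the embryoid body library and 0.422 FPKM after 2 days without LIF, against 0.0704 and 0.133 FPKM in the ES libraries. Gm4675 was thus higher in both derived libraries, whereas Sox21 was higher in 1 of them. Whether strand was used in counting is not given in the sources used here, so reads from the shared stretch cannot be assigned between these genes.

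Pax6 and Sox1, the other progenitor factors, were lower than in ES cells in both derived libraries. Pax6 was at 1.52 FPKM in the embryoid body library and 0.792 FPKM after 2 days without LIF, against 2.44 and 2.21 FPKM in the ES libraries, and no group overlapped another. Its ratio to the ES mean of 2.32 ± 0.163 FPKM (SD, n = 2) was 0.654 in the embryoid body library and 0.341 after 2 days without LIF. Sox1 was at 0.107 FPKM in the embryoid body library and 0.247 FPKM after 2 days without LIF, against 0.392 and 0.296 FPKM in the ES libraries. About 14 Sox1 fragments stood behind the embryoid body value and 22 behind the value after 2 days without LIF, against 60 and 38 in the ES libraries. The interval after LIF withdrawal, 0.158 to 0.382 FPKM, overlapped those of both ES libraries, and that of the embryoid body library, 0.0599 to 0.184 FPKM, overlapped neither.

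Sox1 (ENSMUSG00000096014.1, chromosome 8, 12395295 to 12400126, plus strand) has no opposite-strand neighbour. Pax6 (ENSMUSG00000027168.21, chromosome 2, 105668900 to 105697364, plus strand) lies across the antisense gene Pax6os1, with 0 nt of shared exons, and Pax6os1 was listed at 0 in every library. SOX1 marks the definitive neuroectoderm, so its level bears on the neural label of the group. It was the lowest member in the embryoid body library, after LIF withdrawal and in ES 2, and in ES 1 Cck was lower by 0.378 against 0.392 FPKM.

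Nes, the nestin gene, was low in the embryoid body library and near its ES level after 2 days without LIF. It was at 2.11 FPKM in the embryoid body library and 6.49 FPKM after 2 days without LIF, against 7.11 and 6.92 FPKM in the ES libraries. The embryoid body library was the 1 library that stood apart. Its value was 0.3-fold the ES mean of 7.01 ± 0.136 FPKM (SD, n = 2) and 0.324-fold the value after 2 days without LIF. The interval after LIF withdrawal, 6.03 to 6.97 FPKM, overlapped those of both ES libraries (6.75 to 7.49 and 6.53 to 7.33 FPKM), while the embryoid body interval was 1.89 to 2.33 FPKM. Nes (ENSMUSG00000004891.16, chromosome 3, 87971078 to 87980451, plus strand) overlaps no opposite-strand gene.

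Nestin is not confined to neural progenitors, and fibroblast markers differed between the libraries. The summed level of 15 fibroblast feeder markers was 57.2 FPKM in the embryoid body library and 556 FPKM after 2 days without LIF, against 184 and 192 FPKM in the ES libraries. Without Acta2 and Tagln, left out after their values were seen, the other 13 summed to 54.9 FPKM in the embryoid body library and 171 FPKM after 2 days without LIF, against 48.5 and 46.7 FPKM in the ES libraries, so the low sum of the embryoid body library rested on those 2 smooth muscle genes. All 15 were above both ES libraries after 2 days without LIF, whereas in the embryoid body library 7 were above and 6 below. No feeder marker was at 0 in either derived library, and 1 and 2 were at 0 in the ES libraries. The smooth muscle actin gene Acta2 was at 1.06 FPKM in the embryoid body library and 234 FPKM after 2 days without LIF, against 82.8 and 88.7 FPKM in the ES libraries. Dcn, a marker from the same list that encodes decorin, went the other way in the embryoid body library, at 11.1 FPKM there and 6.68 FPKM after 2 days without LIF, against 0.695 and 0.664 FPKM in the ES libraries. In bulk samples fewer cells of a type and less RNA per cell cannot be told apart, and the part of fibroblasts in the levels of Nes or Cck was not tested.

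Map2 was the member with the highest level in both ES libraries and was lower in both derived libraries. It was at 6.69 FPKM in the embryoid body library and 3.21 FPKM after 2 days without LIF, against 11.0 and 11.6 FPKM in the ES libraries, with no overlap between groups. Relative to the ES mean of 11.3 ± 0.446 FPKM (SD, n = 2) the ratio was 0.592 in the embryoid body library and 0.284 after 2 days without LIF, and the log2 differences were -0.68 and -1.55. Map2 (ENSMUSG00000015222.17, chromosome 1, 66175273 to 66442583, plus strand) shares 124 nt, or 0.754% of its exon length, with the antisense gene Gm10558, which was at 0.182 FPKM after 2 days without LIF and listed at 0 in the other libraries. The FPKM table holds 1 value per gene, so the dendritic and juvenile forms of MAP2, which come from alternative splicing, were not separated.

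Tubb3 was the neuronal member that was higher than in ES cells in both derived libraries. It was at 17.1 FPKM in the embryoid body library and 12.3 FPKM after 2 days without LIF, against 10.6 and 9.79 FPKM in the ES libraries. The embryoid body library was highest, 1.68-fold the ES mean of 10.2 ± 0.543 FPKM (SD, n = 2). After 2 days without LIF the ratio was 1.21, and its interval of 11.1 to 13.5 FPKM overlapped that of ES 1 (9.74 to 11.4 FPKM). Tubb3 (ENSMUSG00000062380.3, chromosome 8, 123411424 to 123422015, plus strand) has no opposite-strand neighbour but lies inside the body of Gm20388, a same-strand locus that shares 0 nt of its exons.

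Ncam1 differed least from ES cells in the embryoid body library, by ratio. It was at 8.43 FPKM in the embryoid body library and 13.1 FPKM after 2 days without LIF, against 9.61 and 10.7 FPKM in the ES libraries. The embryoid body library was just below both ES libraries and the library after 2 days without LIF just above both. The ratios to the ES mean of 10.2 ± 0.779 FPKM (SD, n = 2) were 0.83 and 1.29. Ncam1 (ENSMUSG00000039542.15, chromosome 9, 49502136 to 49798925, minus strand) shares 417 nt, or 4.81% of its exon length, with the antisense gene Gm11149. Gm11149 was at 0.822 FPKM after 2 days without LIF, the library in which Ncam1 was highest, and listed at 0 elsewhere.

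**Figure D2:**
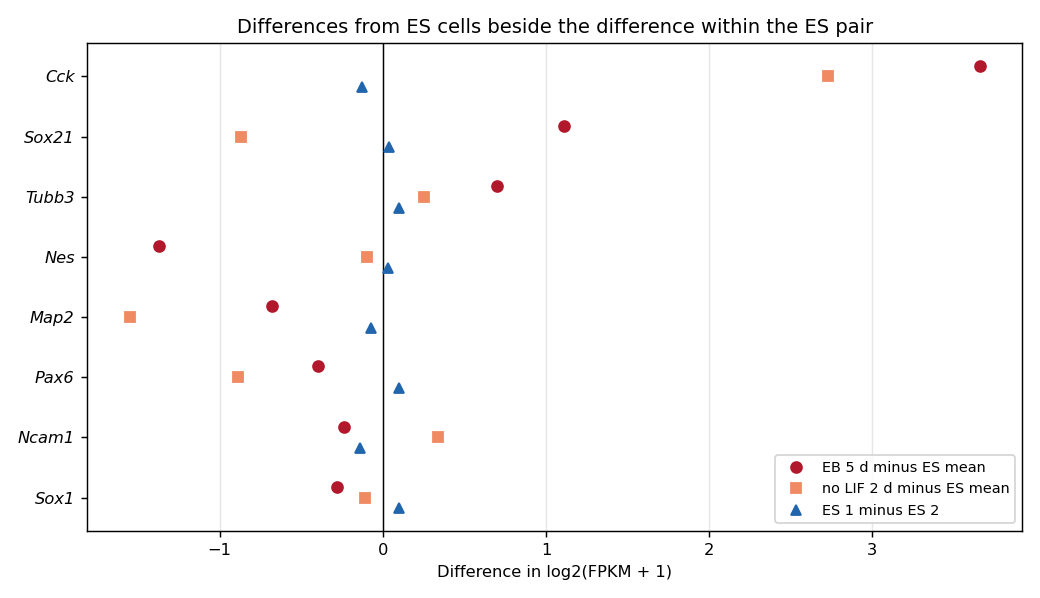
Difference in log2(FPKM + 1) of the embryoid body library from the ES mean (circles), of the library after 2 days without LIF from the ES mean (squares) and between the 2 ES libraries (triangles), for each gene. Cck at 3.66 and 2.73 stands far outside the ES pair, and Nes is at -1.37 in the embryoid body library but at -0.10 after 2 days without LIF.

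No shared direction joined the members. In the embryoid body library Cck, Sox21 and Tubb3 were above both ES libraries and Nes, Map2, Sox1, Pax6 and Ncam1 below both. After 2 days without LIF Cck, Tubb3 and Ncam1 were above both and Nes, Map2, Sox21, Sox1 and Pax6 below both. Lying outside both ES libraries was common. In the embryoid body library 37.6% of all tested genes were above both and 42.9% below both, and after 2 days without LIF 48.4% were above and 36.6% below. Both comparisons share the ES libraries.

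At least 2-fold from both ES libraries was a narrower criterion. In the embryoid body library 2 of the 7 members at 1 FPKM or more were 2-fold higher (Cck and Sox21), beside 4.78% of all genes, and 1 was 2-fold lower (Nes), beside 3.23%. After 2 days without LIF 1 was 2-fold higher (Cck), beside 12.4%, and 3 were 2-fold lower (Map2, Sox21 and Pax6), beside 2.88%. Since the members were picked with these values known, nothing is read from the counts against the background.

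Between the derived libraries, each a single sample, Sox21, Map2 and Cck were 2-fold higher in the embryoid body library than after 2 days without LIF, beside 8.18% of all genes, and Nes was 2-fold lower, beside 14.3%. Map2 at 2.08 and Cck at 2.01 were just inside that limit and Pax6 at 1.92 just outside. For Map2 and Pax6 the embryoid body value lay between the value after 2 days without LIF and the ES values.

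Genes with the most similar profile were sought among 5054 genes at 5 FPKM or more in a library and clear of opposite-strand gene bodies. Likeness was the Euclidean distance between log2(FPKM + 1) profiles over the 4 libraries, each centred on its own mean, so a small distance means equal differences and not equal levels. Nearest to Cck were Mmp10 (distance 0.40), Dcn (0.71) and Igfbp5 (1.05), the largest distances of any member. Mmp10, a matrix metalloproteinase gene, was at 21.7 FPKM in the embryoid body library and 11.8 FPKM after 2 days without LIF, against 0.572 and 0.394 FPKM in the ES libraries. None of the 3 encodes a neuropeptide, but few such genes could be candidates. Of 28 other peptide precursor genes, 23 stayed under 1 FPKM, and Penk lies opposite another gene. The search therefore cannot show whether Cck is like other neuropeptide genes.

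For Sox21 the nearest genes were the keratin gene Krt17 (0.15), the zinc finger factor gene Zic2 (0.34) and Apoe (0.36), the apolipoprotein E gene. Nes had Ddah1 (0.05), the calponin gene Cnn2 (0.15) and Amotl2 (0.24) nearest. The profile of Map2 was closest to Phpt1 (0.15), to Socs3 (0.17), a feedback inhibitor of LIF receptor signalling, and to Id2 (0.23), whose product blocks DNA binding by bHLH factors. Pax6 was nearest to Cenpw (0.04), Ubald1 (0.05) and Mycn (0.09), Tubb3 to Lgr4, Abhd16a and Zmym3 (0.06 each) and Ncam1 to Ndufaf7, Slc7a1 (0.04 each) and Trmt5 (0.05).

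Other neural genes were examined in 9 lists of 185 genes, none of them a member. Of these, 100 reached 1 FPKM in a library and were tested with limma over all 15676 genes, with Benjamini-Hochberg adjustment, an adjusted p under 0.05 and a log2 difference of at least 1. After 2 days without LIF 3 were called higher and 1 lower, beside 7.32% and 0.357% of all genes. Of the 3, L1cam and Npy reached 1 FPKM only in the library in which they were high, so nothing is read from their calls. In the embryoid body library 0 were called by limma over all genes (42 at unadjusted p under 0.05, lowest adjusted p 0.0969), beside 0.396% higher and 0% lower. Among 53 that lie clear of opposite-strand genes, a limma fit to 6808 such genes called 3 higher and 3 lower in the embryoid body library, beside 1.53% and 0.778%, and 0 higher and 2 lower after 2 days without LIF, beside 2.44% and 0.602%. The spread in every fit comes from the ES pair alone. By the 2-fold criterion, which uses no fit, 11 of the 100 were higher and 5 lower in the embryoid body library, beside 4.78% and 3.23% of all genes. After 2 days without LIF 10 were higher and 3 lower, beside 12.4% and 2.88%. Some of the higher genes reached 1 FPKM only in the library in which they were high, so nothing is read from these counts. With a filter of 1 FPKM in at least 2 libraries limma called 0 genes in either comparison (3892 at unadjusted p under 0.05 in the embryoid body library and 4559 after 2 days without LIF), so each list call made over all genes depends on the filter.

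Otx2, an anterior neural and epiblast homeobox gene, rose after 2 days without LIF to 25.7 FPKM, against 9.22 and 9.01 FPKM in the ES libraries (log2 difference 1.40, SE 0.04, limma adjusted p = 0.0211). In the embryoid body library it was at 24.5 FPKM with limma adjusted p = 0.13. The neural adhesion gene L1cam was at 0.857 FPKM in the embryoid body library and 2.66 FPKM after 2 days without LIF, against 0.369 and 0.396 FPKM in the ES libraries. Otx2 and L1cam overlap genes on the opposite strand, so their levels are uncertain. The same holds for other list genes named in the text, namely Furin, Pcsk5, Elavl2, Neurod1, Msi2, Tubb4b, Cadm1, Nfasc, Penk, Ptbp1 and Kdm1a. Exons are shared with the opposite gene for Otx2, Furin, Neurod1, Tubb4b, Penk and Ptbp1. Npy, the neuropeptide Y gene, was at 0.499 FPKM in the embryoid body library and 1.45 FPKM after 2 days without LIF, and was listed at 0 in both ES libraries.

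Gap43, a growth cone protein gene, fell after 2 days without LIF to 5.46 FPKM, against 13.3 and 13.5 FPKM in the ES libraries (-1.15, SE 0.05, limma adjusted p = 0.0366). It was at 5.11 FPKM in the embryoid body library, where the strand-clear fit called it lower (-1.23, limma adjusted p = 0.0237) and the fit over all genes did not (adjusted p = 0.139). Of 16 mature neuron markers 9 passed the filter, and Elavl2, an RNA-binding protein gene, was the most abundant, at 58.6 FPKM in the embryoid body library and 31.3 FPKM after 2 days without LIF, against 32.5 and 30.9 FPKM in the ES libraries. Dlg4, a postsynaptic scaffold gene, was at 11.8 and 15.6 FPKM in the derived libraries in that order, against 12.0 and 12.6 FPKM in the ES libraries. The median log2 difference of the list was -0.06 in the embryoid body library and 0.10 after 2 days without LIF, beside -0.01 and 0.04 over all genes.

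Among 18 expressed progenitor and patterning factors the median log2 difference was -0.02 in the embryoid body library and 0.32 after 2 days without LIF. In the strand-clear fit Zic2 and Zic5, neighbouring zinc finger genes of the neural plate, rose in the embryoid body library, Zic2 to 18.3 FPKM, against 6.35 and 5.56 FPKM in the ES libraries (1.47, limma adjusted p = 0.0266). Zic5 was at 10.9 FPKM, against 5.19 and 4.72 FPKM in the ES libraries (1.00, limma adjusted p = 0.0294), at the limit of the size criterion. After 2 days without LIF Zic2 was at 3.59 FPKM. Hes1, a Notch target that holds progenitors undifferentiated, fell in that fit to 11.7 FPKM in both derived libraries, against 30 and 26.1 FPKM in the ES libraries (limma adjusted p = 0.0302 in the embryoid body library and 0.023 after 2 days without LIF). Zic2, Zic5 and Hes1 were named after their values were seen. Sox2, which ES cells and neural progenitors share, was at 173 FPKM in the embryoid body library and 146 FPKM after 2 days without LIF, against 134 and 126 FPKM.

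Proneural factors, which start neuronal differentiation, were mostly near the limit of detection. Of 19, 15 stayed under 1 FPKM in every library with a highest value of 0.571 FPKM, and 3 were listed at 0 throughout. Hes6, a HES-family factor that promotes neurogenesis, was at 5.87 FPKM in the embryoid body library and 4.76 FPKM after 2 days without LIF, against 6.52 and 6.64 FPKM in the ES libraries. Neurod1 was at 4.21 and 2.83 FPKM in the derived libraries in that order, against 4.39 and 4.22 FPKM. Tbr1, named after its values were seen, was 2-fold above both ES libraries in the embryoid body library. It was at 1.59 FPKM there and 0.359 FPKM after 2 days without LIF, against 0.336 and 0.765 FPKM in the ES libraries. Tbr1 reached 1 FPKM only in the embryoid body library, so nothing is read from its rise. None of the 4 tested was called by limma, with 0 at unadjusted p under 0.05 in the embryoid body library and 2 after 2 days without LIF.

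**Figure D3:**
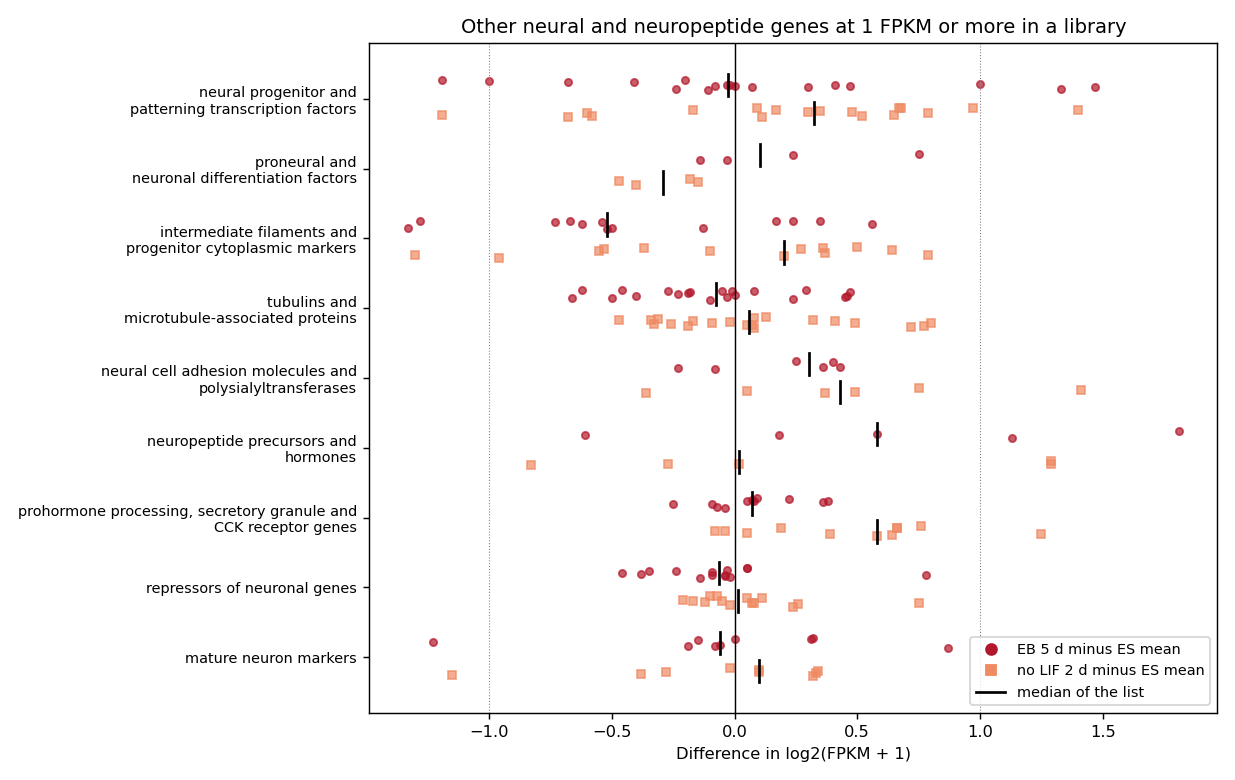
Difference in log2(FPKM + 1) from the ES mean for each list gene at 1 FPKM or more in a library, in the embryoid body library (circles, upper row of each list) and after 2 days without LIF (squares, lower row), with black bars at list medians, dotted lines at -1 and 1 and a small random vertical offset. Intermediate filament and progenitor genes have a median of -0.52 in the embryoid body library and 0.20 after 2 days without LIF, and the list of neuronal gene repressors lies close to 0.

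Nestin belongs by function to the list of intermediate filament and progenitor marker genes. Over its 13 tested genes, not all of them filaments, the median was -0.52 in the embryoid body library and 0.20 after 2 days without LIF. Vim, the vimentin gene, whose product assembles with nestin, was at 41.2 FPKM in the embryoid body library and 123 FPKM after 2 days without LIF, against 101 and 102 FPKM in the ES libraries. It fell in the embryoid body library in the strand-clear fit (-1.28, limma adjusted p = 0.0176; over all genes 0.0969). Vimentin is abundant in fibroblasts, whose summed markers were lowest in the embryoid body library with Acta2 and Tagln and above both ES libraries without them, and the part of fibroblasts in the level of Vim was not tested. Msi2, an RNA-binding protein gene of progenitors, was at 133 and 167 FPKM in the derived libraries in that order, against 120 and 116 FPKM.

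Tubulins and microtubule-associated proteins, the relatives of Tubb3 and Map2, showed 0 limma calls among 20 tested genes in either comparison, with 5 at unadjusted p under 0.05 in the embryoid body library and 6 after 2 days without LIF. Their medians were -0.07 in the embryoid body library and 0.06 after 2 days without LIF. Tubb5, the main beta tubulin of dividing cells, was at 580 FPKM in the embryoid body library and 597 FPKM after 2 days without LIF, against 651 and 714 FPKM in the ES libraries. Tubb4b was at 430 and 391 FPKM, against 435 and 446 FPKM. Per length, Tubb3 was thus far below Tubb5 and Tubb4b in every library. It was above Tubb2a in every library. Tubb2a was at 5.38 FPKM in the embryoid body library and 8.21 FPKM after 2 days without LIF, against 6.11 and 8.95 FPKM. Tubb2b and Tubb6, at 36.6 and 25 FPKM in the embryoid body library, were above Tubb3 in every library. Tubb2a, Tubb2b and Tubb6 were named after their values were seen.

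Adhesion molecules related to Ncam1 passed the filter in 6 of 13 cases, with medians of 0.30 in the embryoid body library and 0.43 after 2 days without LIF. Cadm1 was at 13.3 FPKM in the embryoid body library and 15.9 FPKM after 2 days without LIF, against 11.1 and 11.0 FPKM, and Nfasc, the neurofascin gene, at 6.42 and 5.11 FPKM, against 6.81 and 6.87 FPKM. St8sia2 and St8sia4, which add polysialic acid to NCAM1, did not exceed 0.151 and 0.752 FPKM in any library. Both were singled out after their values were seen.

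**Figure D4:**
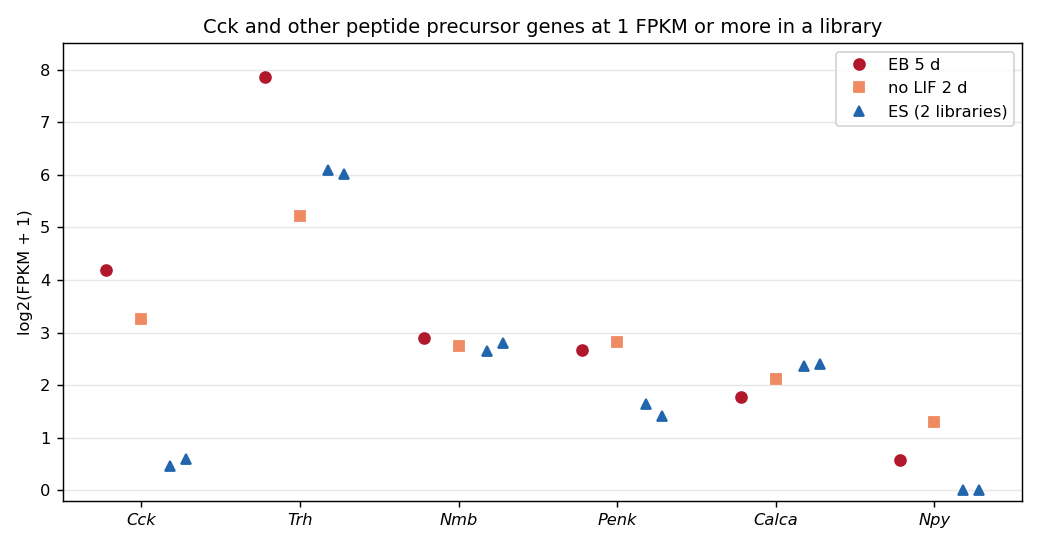
log2(FPKM + 1) of Cck and of the 5 peptide precursor genes at 1 FPKM or more in a library, in the embryoid body library (circles), after 2 days without LIF (squares) and in the 2 ES libraries (triangles). Trh is above both ES libraries in the embryoid body library and below both after 2 days without LIF, and Cck is above both in each derived library.

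Most peptide precursor genes stayed low. Of 28 besides Cck, 23 stayed under 1 FPKM in every library and 7 of these were listed at 0 throughout. Trh, the thyrotropin-releasing hormone precursor gene, was the most abundant, at 231 FPKM in the embryoid body library and 36.2 FPKM after 2 days without LIF, against 66.8 and 63.6 FPKM in the ES libraries. It rose in the embryoid body library in the strand-clear fit (1.81, limma adjusted p = 0.0149; over all genes 0.13). Nmb, the neuromedin B gene, was at 6.48 and 5.68 FPKM in the derived libraries in that order, against 5.27 and 5.97 FPKM. Penk, the enkephalin precursor gene, named after its values were seen, was at 5.35 and 6.06 FPKM, against 2.14 and 1.68 FPKM, and lies opposite another gene.

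Genes for processing and sulphating peptides had a median log2 difference of 0.07 in the embryoid body library and 0.58 after 2 days without LIF over 11 tested genes, with 0 limma calls (2 and 5 at unadjusted p under 0.05). Tpst1 and Tpst2, which sulphate tyrosines of secreted proteins, were at 26.2 and 16.9 FPKM in the embryoid body library and 27.9 and 13.9 FPKM after 2 days without LIF, against 26 and 13.6 FPKM in ES 1 and 28.1 and 15.1 FPKM in ES 2.

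Repressors that silence neuronal genes outside the nervous system were all expressed, 14 of 14, with medians of -0.07 in the embryoid body library and 0.01 after 2 days without LIF and 0 limma calls (5 and 2 at unadjusted p under 0.05). Ptbp1, a splicing repressor, was at 417 FPKM in the embryoid body library and 453 FPKM after 2 days without LIF, against 451 and 469 FPKM. The histone demethylase gene Kdm1a was at 106 and 133 FPKM, against 105 and 121 FPKM. Rcor2, a corepressor gene named after its values were seen, was at 39.2 and 38.3 FPKM, against 22.2 and 22.6 FPKM, and did not reach the log2 limit of 1.

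Library-wide facts that bear on these values are few. The estimated depth was 18.1 to 31.5 M fragments, at which 3 fragments in a gene model of 1 kb equal 0.0954 to 0.166 FPKM. After 2 days without LIF 44.7% of summed FPKM fell on the top 10 genes, against 9.8 to 17.4% in the other libraries, yet median-of-ratios factors lay between 0.973 and 1.018. Pluripotency markers were present throughout, all 10 at 1 FPKM or more in each library, with summed levels of 2861 FPKM in the embryoid body library and 2501 FPKM after 2 days without LIF, against 2354 and 2349 FPKM. Without Dppa5a, left out after its values were seen, the sums were 1725 and 1696 FPKM in the derived libraries in that order, against 1793 and 1771 FPKM, and in the embryoid body library 6 of the 10 were above both ES libraries and 4 below both. Mesoderm markers summed to 4.1 FPKM in the embryoid body library and 8.88 FPKM after 2 days without LIF, where 6 of 8 were above both ES libraries, against 4.71 and 4.61 FPKM in the ES libraries. Endoderm markers summed to 4.4 and 2.56 FPKM in the derived libraries in that order, against 3.74 and 2.61 FPKM. Glia markers summed to 3.39 to 10.6 FPKM and neural crest markers to 21.2 to 39.6 FPKM, highest in both cases after 2 days without LIF. In that library 6 of 10 glia markers were above both ES libraries and 4 below both. The glia marker Mog, named after its values were seen, was at 4.88 FPKM there and listed at 0 in the other libraries.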

How the data were processed

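The authors deposited 1 FPKM value per gene and library. Trimmomatic 0.36, STAR, Cufflinks and build mm10 are named per the submitters' processing notes, while for options, annotation and strand the entry is "not given in the sources used here". Gene names, positions and overlaps came from GENCODE M21 (47219 of 47633 identifiers matched without version), and promoters from RefSeq on GRCm38.p6.

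Genes reaching 1 FPKM in any library were fitted on log2(FPKM + 1) with limma 3.58.1 (R 4.3.3), with all 4 libraries in 1 model and a trend on expression. Only the ES pair gives residual freedom (1 degree), so the p-values measure only its spread, possibly technical. The strand-clear set holds protein-coding genes and lncRNAs whose exons total 1000 nt or more and that lie outside any opposite-strand gene body. The fit was tested on simulated data. Depth was estimated by taking the commonest small product of FPKM and exon length as 1 fragment. Python 3.11.15 was used elsewhere.

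Named list genes were, per list and comparison, up to 4 called genes or the 2 most abundant, and 3 nearest profiles per member. One gene this rule names is not reported here. The members and lists were chosen with earlier results of these data known.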

Additional observations from a re-analysis of the deposited data

Results flagged for a closer look

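In 6 genes the derived libraries lay on opposite sides of both ES libraries, each with a single sample and with the difference not tested. The embryoid body library minus the library after 2 days without LIF, in log2(FPKM + 1), was 1.98 for Sox21, 2.64 for Trh and 2.07 for Zic2, which were above ES cells in the embryoid body library and below them after 2 days without LIF. It was -0.58 for Ncam1, -0.38 for Dlg4 and -1.55 for Vim, which were below ES cells in the embryoid body library and above them after 2 days without LIF.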

How the results depend on the processing

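With a pseudocount of 0.1, other scaling or the loss of either ES library, 0 of 64 member differences changed sign and 4 moved by over 1.5 times. With that pseudocount Sox1 was at -1.09 in the embryoid body library (main value -0.28) and -0.35 after 2 days without LIF (main value -0.11, and -0.06 without ES 1), and Pax6 at -1.44 after 2 days without LIF (main value -0.89). Cck was at 5.00 in the embryoid body library (main value 3.66). Counts over all genes moved far more. The ES libraries themselves differed 2-fold from each other in 2046 of 15676 genes (13.1%) and in 108 of 6808 strand-clear genes (1.59%). Limma calls after 2 days without LIF numbered 1203, but 0 with a filter of 1 FPKM in at least 2 libraries (4559 at unadjusted p under 0.05) and 207 in strand-clear genes, 80.2% of them higher against 95.3%. For the embryoid body library 62 calls became 131 with a pseudocount of 0.1, 138 without a filter, 0 with the filter on 2 libraries, 0 without a trend (3892 and 4504 at unadjusted p under 0.05) and 157 in strand-clear genes, 3 of them shared with the 62. The share called higher was 66.2% there and 75.4% without a filter, against 100%. Genes 2-fold from both ES libraries numbered 2402 after 2 days without LIF, 937 with that filter and 448 strand-clear, and 2926 to 3357 against a single ES library. In the embryoid body library they numbered 1256, then 684 and 394, and 1725 to 2372 against a single ES library, the higher number without ES 1. Between the derived libraries 3518 became 687 in strand-clear genes, a smaller set. The other causes were not tested. List counts moved by over 1.5 times in 14 of 126 alternatives, and the calls of Otx2, L1cam, Npy and Gap43 were lost with the filter on 2 libraries. Leaving out an ES library leaves no residual degrees of freedom, so limma was not run there. A count of 0 calls does not show that genes did not differ. No paired analysis was possible because the derived libraries carry no replicate numbers.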
